A study of Mus musculus with 15 samples.

Results

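Small nucleolar RNA (snoRNA) genes were followed in mouse LSK cells, sorted as lineage-negative, Sca-1+ and Kit+ and rich in blood stem cells and progenitors. The genes were those with a probe set whose only symbol begins with Snora or Snord and a digit, taken from 22180 genes measured. This gave 73 snoRNA genes on 75 probe sets, 26 of the H/ACA class (Snora) and 47 of the C/D class (Snord). Another 43 probe sets carry a snoRNA symbol together with other symbols and were not used here. The 3 groups held 5 biological replicates each: LSK cells taken straight after sorting (non-cultured), LSK cells kept 18 h in MyeloCult M5300 medium without extracellular vesicles (EV), and LSK cells kept 18 h in the same medium with EV derived from AFT stromal cells. The labels used here give no strain, sex, age or genotype, and do not say whether the replicates came from separate animals, so p-values measure the spread between these 15 samples.

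The snoRNAs are short nucleolar RNAs that guide chemical changes of ribosomal RNA. C/D snoRNAs bind fibrillarin and guide 2′-O-methylation, whereas H/ACA snoRNAs bind dyskerin and guide pseudouridylation, and a few members act in the cutting of the ribosomal RNA precursor. In mammals most snoRNAs lie in introns and are released from the spliced intron of a host gene, many of which encode ribosomal or nucleolar proteins. A few, among them U3, U8 and U13, are transcribed from promoters of their own.

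Signals are on a log2 scale, a difference of 1 being a 2-fold change, and no signal over background was given, so a dim snoRNA could not be told from background. The 73 genes had mean log2 signals from 2.47 to 9.97 (median 5.41, against 4.88 for all genes). They were noisier than most genes: their median SD between non-cultured replicates was 0.61, against 0.18 for all genes, and differences carried wider errors, with a median SE (standard error) of 0.37, against 0.13. A probe set in an intronic snoRNA gene also reads unspliced host RNA, and neither that nor fewer cells with the RNA can be told apart from less mature snoRNA per cell. Array medians lay between 4.62 and 4.74. In non-cultured cells the 6 measured LSK genes had mean log2 signals of 10.63 (Cd34), 9.62 (Kit), 9.34 (Ptprc), 8.97 (Flt3), 6.93 (Cd48) and 4.31 (Slamf1). Of 7 measured lineage genes, which the sort would remove, 6 lay between 2.85 (Ms4a1) and 4.48 (Cd8a) there and Itgam at 6.18. Slamf1 thus lay within the range of those 6. Ly6a, which encodes Sca-1, was not analysed here. Of 6 measured LSK genes, Flt3 (log2 0.63, limma adjusted p = 7.09e-06) and Kit (0.39, adjusted p = 0.0429) rose and Cd48 (-0.80, adjusted p = 0.026) fell without EV, and Flt3 rose with EV (0.65, adjusted p = 4.84e-06), against non-cultured cells. No lineage gene was called in any comparison, and Itgam differed by 0.55 without EV (adjusted p = 0.0826). Of 10 stromal genes, Thy1 fell in both cultured groups (log2 -0.86 and -0.76), and Cxcl12 (0.48, adjusted p = 0.0233), Sparc (0.39, adjusted p = 0.0287) and Col1a2 (0.31, adjusted p = 0.0231) rose with EV against non-cultured cells, while none was called between the cultured groups, where 4 had an unadjusted p under 0.05. The part of these shifts in the snoRNA results was not tested.

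Cells cultured for 18 h without EV were first set against non-cultured cells. Time, handling and medium differ together here and cannot be told apart. Of the 73 members 9 fell and none rose, and Snord13 and Snord118 had the lowest differences. Snord13 encodes U13, which guides acetylation of the small ribosomal subunit RNA, and Snord118 encodes U8, which is needed to mature the large subunit RNAs. The share of members called lower was 12.3%, where 6.88% of all genes were called lower (a limma fit over the whole table, Benjamini-Hochberg adjusted p under 0.05). Of all genes 6.75% were called higher and 13.6% in either direction.

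Snord13 gave log2 signals of 10.20, 9.86, 10.05, 10.54 and 10.38 in non-cultured replicates 1 to 5. After culture without EV the same gene read 6.08, 3.12, 5.58, 4.13 and 2.85. With EV it read 3.27, 5.48, 2.86, 2.89 and 3.57. All 10 cultured arrays lay well below all 5 non-cultured arrays, and both cultured groups varied widely. The fall was 57.8-fold without EV (log2 -5.85, SE 0.59, 5 arrays in each group, limma adjusted p = 4.58e-06) and 96.4-fold with EV (log2 -6.59, adjusted p = 1.21e-06). In both comparisons with non-cultured cells this was the lowest log2 difference among the 22180 genes. Its mean level passed from above 99.3% of all genes in non-cultured cells to above 38.9% without EV and 21.9% with EV, a range where background may set the value and the size of the fold.

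Snord118 read 9.22, 8.95, 9.44, 8.77 and 8.76 in non-cultured cells. Without EV its signals were 4.89, 5.11, 4.19, 4.86 and 4.35, and with EV they were 5.81, 4.96, 4.80, 3.92 and 4.46. The groups did not overlap, since the highest cultured array lay 2.95 log2 units below the lowest non-cultured one. It fell 20.4-fold without EV (log2 -4.35, SE 0.28, limma adjusted p = 2.78e-08) and 18.9-fold with EV (log2 -4.24, adjusted p = 4.16e-08). Its cultured means lay above 46.2% and 47.5% of all genes, so background may set the size of these folds too.

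Snord13, Snord118 and Snord89 are the 3 members that lie within no protein-coding or long non-coding gene of RefSeq assembly GRCm38.p6. Snord89, a C/D RNA, did not follow the other two: its signals ranged from 5.97 to 7.74 (median 7.04) in non-cultured cells and from 6.33 to 9.41 (median 6.78) without EV. The difference of log2 0.74 (SE 0.68, limma adjusted p = 0.607) did not pass. With EV it was log2 0.64 (adjusted p = 0.613), also not past the threshold. Single arrays moved both values by over 1.5 times: without EV to 0.31 without replicate 5 of that group, 0.32 without its replicate 3 and 0.49 without non-cultured replicate 4, and with EV to 0.20 without replicate 1 with EV, 0.42 without replicate 2 with EV and 0.40 without non-cultured replicate 4.

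Other small RNAs that lie in no host gene were then looked up, a choice made after their values were seen. Counted by symbol alone, whether or not they lie in a host gene, 1 of 5 Scarna genes and 2 of 4 Rnu genes were called lower without EV and 0 higher. Of all genes 6.88% were called lower. Rnu3a encodes a copy of U3, the C/D snoRNA that acts in early cutting of the ribosomal RNA precursor, but its symbol keeps it outside the 73. It read 9.84, 10.18, 9.82, 9.34 and 9.41 in non-cultured cells, 8.10, 6.63, 7.76, 7.79 and 7.67 without EV, and 7.89, 5.99, 6.72, 7.44 and 5.54 with EV. It fell 4.38-fold without EV (log2 -2.13, SE 0.38, limma adjusted p = 0.00109) and 8.01-fold with EV (log2 -3.00, adjusted p = 4.73e-05), and no cultured array reached a non-cultured one. U3 has near-identical gene copies, so the copy is uncertain.

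Rnu12, the U12 RNA of the minor spliceosome, fell 4.83-fold without EV (log2 -2.27, SE 0.18, limma adjusted p = 2.58e-07) and 5.54-fold with EV (adjusted p = 1.03e-07). Scarna2, a guide RNA of Cajal bodies, fell without EV (log2 -1.57, SE 0.35, adjusted p = 0.00614) and differed by log2 -0.91 with EV (adjusted p = 0.106). Terc, the telomerase RNA, which has an H/ACA domain, fell without EV (log2 -1.40, SE 0.24, adjusted p = 0.000863) and differed by -0.67 with EV (adjusted p = 0.081). The difference between the cultured groups did not pass for either gene (log2 0.73, adjusted p = 0.542 for Terc, and 0.66, adjusted p = 0.762 for Scarna2). Not all such RNAs fell. Rnu11, of the same minor spliceosome, differed by log2 -0.09 (SE 0.13, adjusted p = 0.778) without EV. Rn7sk, which restrains transcription elongation, differed by -0.01 (SE 0.07, adjusted p = 0.944) without EV. Its mean without EV was 11.99, where the highest mean of any gene over the 3 groups was 12.45. Whether a fall of Rn7sk could be read at that level was not tested.

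**Figure D1:**
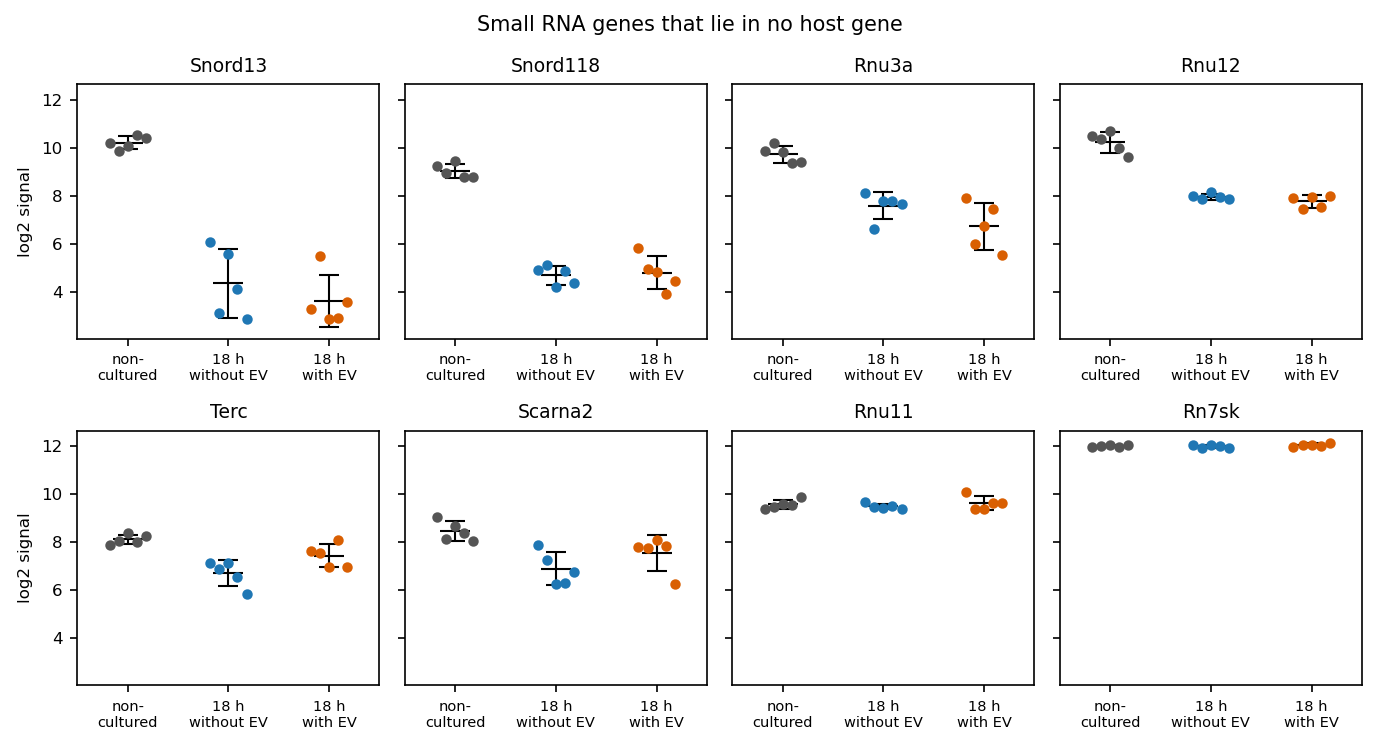
Log2 signal (y) of 8 small RNA genes that lie in no host gene, in non-cultured cells and after 18 h without or with EV (x); points are the 5 arrays of a group, horizontal marks the mean and bars the SD. The Snord13 mean drops from 10.21 to 4.35 without EV and 3.62 with EV, and the Snord118 mean from 9.03 to 4.68 and 4.79. Rnu3a and Rnu12 drop less, and Rnu11 and Rn7sk stay level.

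Among the 70 members within host genes, 7 fell without EV and 6 of these also fell with EV. Snora28, an H/ACA RNA within the translation factor gene Eif5, read 8.66, 8.44, 8.83, 8.58 and 8.25 in non-cultured cells and 7.46, 7.44, 7.75, 6.72 and 7.63 without EV. The groups did not overlap, and the fall was 2.22-fold (log2 -1.15, SE 0.23, limma adjusted p = 0.00243). Snora31, within Tpt1, fell 3.02-fold (log2 -1.60, SE 0.34, adjusted p = 0.00433), although 1 of the 25 pairs of arrays went the other way. Snora75, within the nucleolin gene Ncl, fell 1.92-fold (log2 -0.94, SE 0.28, adjusted p = 0.0319).

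The C/D members that fell within hosts were Snord69, Snord16a, Snord17 and Snord22. Snord69 read 6.15, 6.97, 5.03, 6.49 and 5.74 in non-cultured cells and 3.96, 4.35, 4.28, 4.72 and 3.71 without EV, with no overlap, a fall of 3.66-fold (log2 -1.87, SE 0.32, limma adjusted p = 0.000754). Snord16a, within the ribosomal protein gene Rpl4, fell 4.61-fold (log2 -2.20, SE 0.56, adjusted p = 0.0142). Its symbol is that of a lettered copy, so the copy read is uncertain. Snord22, within Snhg1, a non-coding gene known as a host of several snoRNAs, fell 1.62-fold (log2 -0.70, SE 0.18, adjusted p = 0.0156). Snord17, within the sorting nexin gene Snx5, fell 2.76-fold (log2 -1.46, SE 0.45, adjusted p = 0.0387), with 3 of 25 pairs of arrays going the other way, and was not called lower with EV. Leaving out 1 array at a time kept the call of Snora75 in 8 of 15 fits and that of Snord17 in 9, and kept the other 7 in all 15.

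No member rose in this comparison. The 5 with the smallest p among those with a positive difference were Snord123, Snord99, Snora74a, Snord8 and Snord89, with differences from log2 0.23 to 0.81 and adjusted p from 0.236 to 0.607. In 8 members every array without EV lay below every non-cultured array, 11.0% of the 73, where this held for 6.39% of all genes, and the opposite held for 0 members and 5.89% of all genes.

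Of 26 H/ACA genes 3 fell, with a median difference of log2 -0.28, and of 47 C/D genes 6 fell, with a median of -0.28. Over all genes the median difference was 0.01, and 47.6% of genes were below 0, against 69.9% of the snoRNA genes. As a comparison within small RNAs, 7 of 472 microRNA genes fell and 10 rose, with a median of -0.02. That is 1.48% called lower and 3.6% in either direction, against 6.88% and 13.6% of all genes. The microRNA genes were thus called less often than genes at large, which limits them as a comparison. The median per array of the members' deviations from their own means lay between -0.15 and -0.02 for H/ACA and between -0.13 and -0.02 for C/D genes without EV. In non-cultured arrays it lay between 0.01 and 0.42 for H/ACA and between -0.07 and 0.80 for C/D genes, where replicate 2 gave the lowest and replicate 4 the highest value. On this measure the C/D groups overlap and the H/ACA groups do not. The deviations were not adjusted for the level of each array. The gap between the H/ACA groups is smaller than the range of array medians (4.62 to 4.74), and the part of array level in it was not tested.

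**Figure D2:**
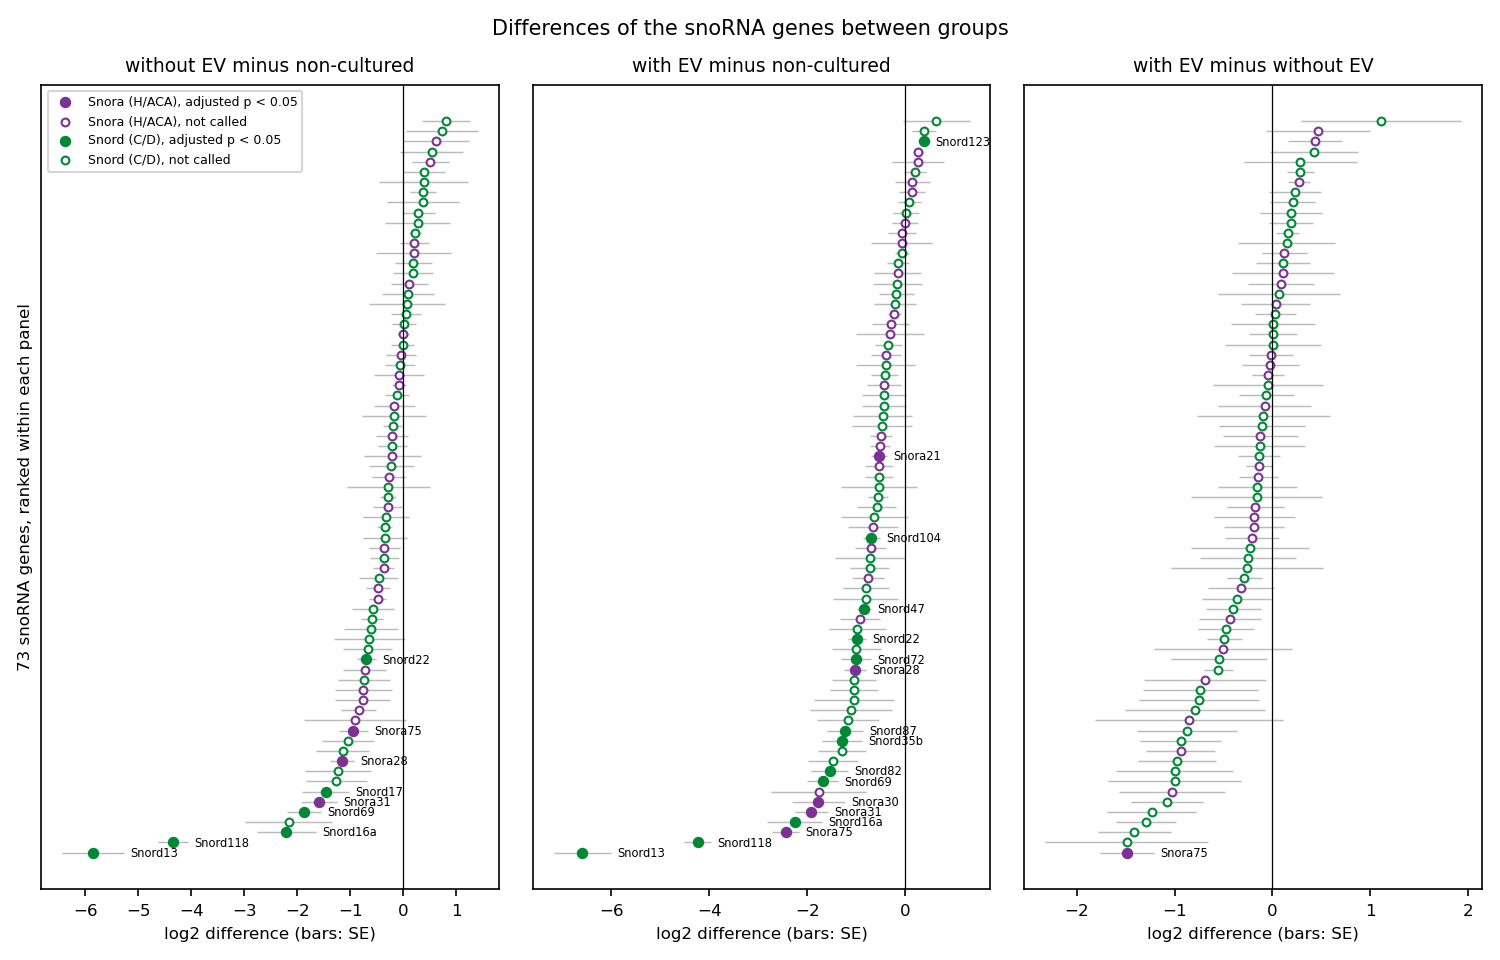
Log2 difference (x) of each of the 73 snoRNA genes, ranked within each panel (y), for the 3 comparisons; bars are the SE, purple marks H/ACA and green C/D genes, and filled points have an adjusted p under 0.05. Snord13 and Snord118 stand apart at -4.24 or below in both comparisons with non-cultured cells, and Snora75 is the filled point in the comparison of EV with no EV.

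Culture with EV, set against the same non-cultured arrays, gave more called members. Of the 73 genes, 16 fell and 1 rose, so 21.9% were called lower, where 7.85% of all genes were called lower and 6.28% higher. Of the 9 members that fell without EV, 8 fell here too. These comparisons share the 5 non-cultured arrays, so their values are given side by side and not as independent evidence. Snora75 fell 5.41-fold (log2 -2.43, SE 0.28, limma adjusted p = 1.59e-05), Snora31 3.77-fold (log2 -1.92, adjusted p = 0.00108), Snord69 3.21-fold (log2 -1.68, adjusted p = 0.0018), Snora28 2.04-fold (log2 -1.03, adjusted p = 0.0055) and Snord22 1.98-fold (log2 -0.99, adjusted p = 0.00133). Snord16a fell 4.76-fold (log2 -2.25, adjusted p = 0.0124), but replicate 4 with EV read 7.28, within the non-cultured range of 6.62 to 7.92.

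**Figure D3:**
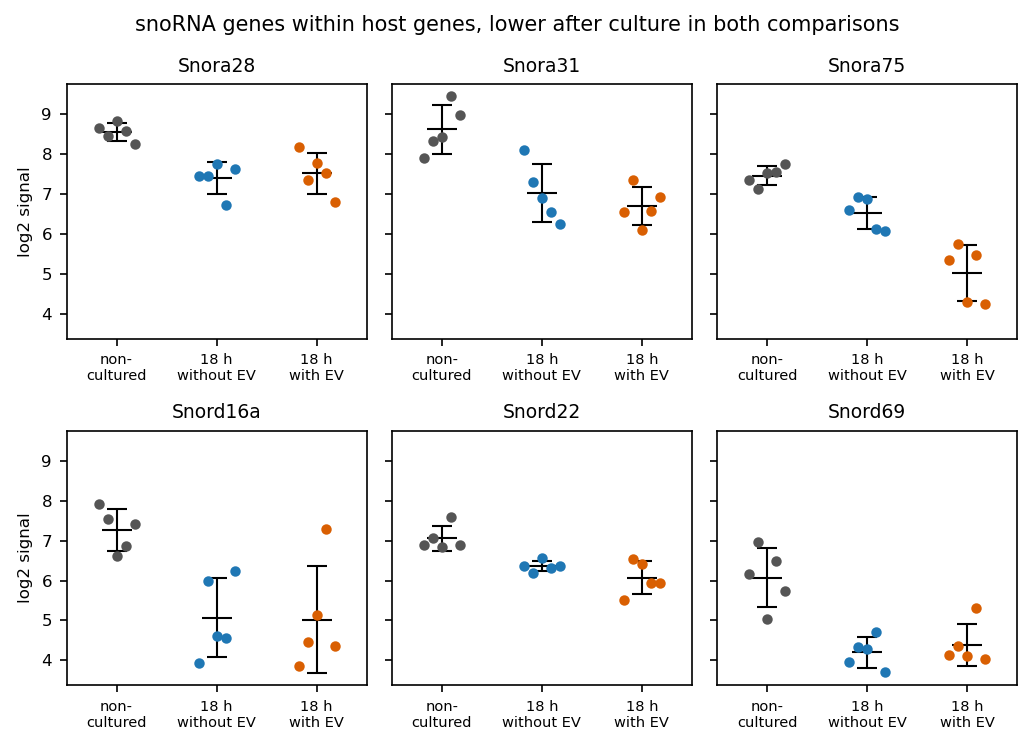
Log2 signal (y) of the 6 snoRNA genes within host genes that were called lower in both comparisons with non-cultured cells, by group (x); points are the 5 arrays of a group, horizontal marks the mean and bars the SD. Snora75 is the panel in which the arrays with EV all lie below those without EV, and Snord16a shows 1 array with EV at 7.28.

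The 8 members that were called lower with EV and not without EV were Snora21, Snora30, Snord104, Snord35b, Snord47, Snord72, Snord82 and Snord87. None of the 8 was called with EV against without EV. Without EV their differences from non-cultured cells ranged from log2 -0.75 (Snora30) to 0.29 (Snord72). Snora21 differed almost as much without EV (log2 -0.48, limma adjusted p = 0.0598) as with EV (-0.53). Snord47, a C/D RNA of the Gas5 locus, read 7.76, 7.98, 8.14, 8.19 and 7.63 in non-cultured cells, and 7.13, 7.07, 7.06, 7.20 and 7.04 with EV. Every array with EV lay below every non-cultured array, the 5 arrays with EV were within 0.17 of each other, and the fall was 1.79-fold (log2 -0.84, SE 0.15, limma adjusted p = 0.00115). Snord104, the brightest member, fell 1.61-fold (log2 -0.69, SE 0.18, adjusted p = 0.0169), also without overlap. Snord82 fell 2.91-fold (log2 -1.54, SE 0.37, adjusted p = 0.00925).

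The other 5 passed more narrowly. Snora30, within the chromatin remodeller gene Srcap, had log2 -1.77 (SE 0.54, limma adjusted p = 0.0384), with replicate 1 with EV at 3.57 and the other 4 between 5.42 and 7.19. Snora21, within the ribosomal protein gene Rpl23, had log2 -0.53 (SE 0.16, adjusted p = 0.0381). Snord72, within Rpl37, had -1.01 (SE 0.31, adjusted p = 0.0378), Snord87, in Snhg6, had -1.23 (SE 0.37, adjusted p = 0.0357), and Snord35b had -1.29 (SE 0.42, adjusted p = 0.0495). Snord35b is a lettered copy, with Snord35a also a member, so the copy read is uncertain. The member that rose was Snord123, a dim C/D RNA within Snhg18 (log2 0.39, SE 0.11, adjusted p = 0.0323). The differences of the other members with a positive value and the smallest p, Snora35, Snord8, Snord89 and Snord90, did not pass. Of 15 fits that each left out 1 array, the call held in 4 for Snord35b, in 8 for Snora30 and Snord72, in 9 for Snora21 and Snord123, in 10 for Snord87, and in all 15 for Snord47, Snord104 and Snord82.

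With EV the C/D median difference was log2 -0.69, with 11 of 47 genes lower and 1 higher, and the H/ACA median was -0.46, with 5 of 26 lower. Over all genes the median was 0.04. In total 86.3% of the snoRNA genes were below 0, against 42.2% of all genes. In 9 members every array with EV lay below every non-cultured array, where this held for 6.38% of all genes, and in 2 members, Snora35 and Snord123, every array with EV lay above, where this held for 5.06% of all genes.

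With EV against without EV, both after 18 h, 1 of 73 snoRNA genes was called: Snora75, known as U23, an H/ACA guide of ribosomal RNA. It read 6.59, 6.93, 6.87, 6.12 and 6.08 without EV and 5.35, 5.76, 4.30, 5.49 and 4.24 with EV. No array with EV reached the lowest array without EV, and the fall was 2.81-fold (log2 -1.49, SE 0.28, limma adjusted p = 0.0363). Over all genes 0.018% were called lower and 0.198% in either direction, and 11 members had an unadjusted p under 0.05, as did 1513 of the 22180 genes. The call was made in 4 of 15 fits that each left out 1 array (adjusted p from 0.0153 to 0.132). It was also lost with only these 2 groups in the fit (adjusted p = 0.196), with all probe sets tested (adjusted p = 0.0974) and with the replicate number as a block (adjusted p = 0.0982), and in that last fit Snord72 was called in its place (log2 -1.29, adjusted p = 0.0461).

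Snora75 and Snord82, a C/D RNA, lie in the same host gene, Ncl, which encodes nucleolin, an abundant nucleolar protein that binds ribosomal RNA precursors. Snord82 read 8.85, 7.34, 7.83, 6.78 and 7.06 without EV and 6.41, 7.54, 6.37, 5.38 and 6.74 with EV. The groups overlap, and the difference of log2 -1.08 (SE 0.37, limma adjusted p = 0.559) did not pass. Ncl itself read 10.16, 10.32, 10.39, 10.30 and 10.35 without EV and 10.17, 10.26, 10.52, 10.47 and 10.11 with EV. Its difference with EV was log2 0.00 (SE 0.09, adjusted p = 0.999), and without EV it was 1.36-fold lower than in non-cultured cells (log2 -0.44, SE 0.09, adjusted p = 0.00389). Snord20, another RNA of this locus in mammals, was not analysed here.

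**Figure D4:**
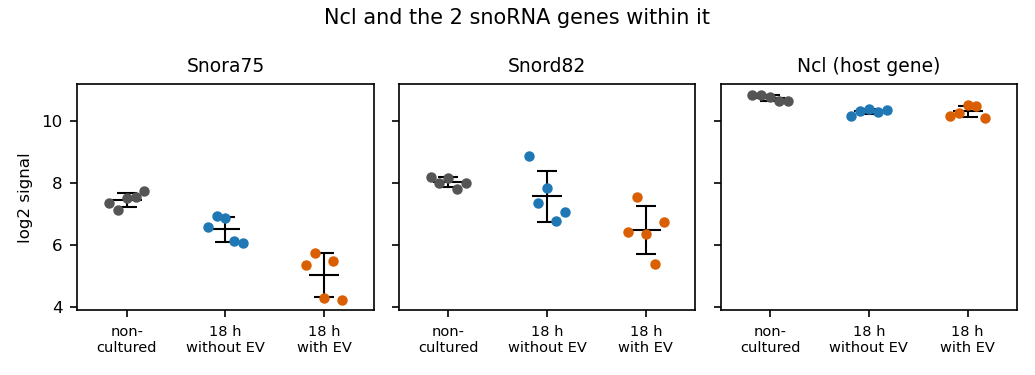
Log2 signal (y) of Snora75, Snord82 and their host gene Ncl by group (x); points are the 5 arrays of a group, horizontal marks the mean and bars the SD. The Snora75 means step down from 7.46 to 6.52 and 5.03, while Ncl stays at 10.30 and 10.31 in the 2 cultured groups.

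The next members by p were Snord72, Snord87 and Snord47, none of which passed. Snord87, a C/D RNA, read 6.47, 7.52, 6.79, 6.09 and 6.87 without EV and 5.66, 4.39, 6.01, 4.32 and 6.31 with EV, and 1 of 25 pairs of arrays was higher with EV (log2 -1.41, SE 0.37, limma adjusted p = 0.329). Snord72 differed by log2 -1.29 (SE 0.31, adjusted p = 0.21). Snord47 differed by -0.55 (SE 0.15, adjusted p = 0.373), although each array with EV lay below each array without EV, which was seen in 2 members and in 0.5% of all genes, and in the opposite direction in no member and 0.762% of all genes. On the other side, Snora35 (log2 0.27, adjusted p = 0.692), Snora44 (0.43, adjusted p = 0.793), Snord23 (0.28, adjusted p = 0.731), Snord123 (0.16, adjusted p = 0.824) and Snord92 (1.11, SE 0.82, adjusted p = 0.824) did not pass. Leaving out single arrays moved Snord92 to between 0.49 (without replicate 4 with EV) and 1.76 (without replicate 5 with EV), with 0.66 without replicate 2 with EV. It moved Snord123 to 0.09 without replicate 1 with EV or replicate 2 without EV, and Snora44 to 0.25 without replicate 1 with EV.

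Read as classes, the medians with EV against without EV were log2 -0.14 for the 26 H/ACA genes and -0.16 for the 47 C/D genes, with 0.01 over all genes. Of the 73 members 50 were below 0, which is 68.5%, against 47.2% of all genes. Per array, the median deviation of the C/D genes lay between -0.67 and -0.22 with EV and between -0.13 and -0.02 without EV, so these groups do not overlap. That of the H/ACA genes lay between -0.53 and 0.01 with EV and between -0.15 and -0.02 without EV, where replicate 2 with EV gave the highest value and the groups overlap. These deviations were not adjusted for array level. The gap between the C/D groups is smaller than the range of array medians (4.62 to 4.74), and the part of array level in it was not tested. The class medians of the differences moved with single arrays: without replicate 4 with EV the C/D median was -0.08, and without replicate 5 with EV it was -0.31. Over 472 microRNA genes the median was 0.04.

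Host genes were taken as the RefSeq genes whose span contains the snoRNA gene, with strand not used. By this rule 64 members lay in 1 host gene, 6 in 2 and 3 in none, and 19 lay in a ribosomal protein gene. Of the 62 hosts 47 had a probe set of their own, and 15 of these fell without EV and none rose, 31.9% against 6.88% of all genes lower. With EV 16 fell and none rose, 34.0% against 7.85%, and none was called between the cultured groups, where 2 had an unadjusted p under 0.05. Of the 50 members within protein-coding hosts only, 6 fell without EV (median log2 -0.34), of the 20 with a non-coding host 1 fell (median -0.14), and of the 19 in ribosomal protein genes 1 fell (median -0.48).

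A member and its host often differed in what was called. Over the 55 pairs with 1 host and a measured host, both were called without EV in 5 pairs, the snoRNA alone in 2 and the host alone in 13. Across these pairs the 2 differences had Pearson's r of -0.01 and Spearman's rho of -0.01, a description over pairs that share arrays and, in part, hosts, and in which snoRNA differences had a median SE of 0.40 against 0.11 for hosts. Snord16a fell 4.61-fold while Rpl4 differed by log2 -0.08 (SE 0.06, limma adjusted p = 0.548), and Snora31 fell 3.02-fold while Tpt1 differed by 0.07 (SE 0.06, adjusted p = 0.597). Both of these pairs had a host whose SE was small and whose level was high. The non-cultured means were 11.90 for Rpl4 and 11.71 for Tpt1, where the highest mean of any gene over the 3 groups was 12.45. Whether a change could be read at that level was not tested, and the copy read for Snord16a is uncertain. The reverse was seen at Nop58, a core C/D protein gene that fell 2.27-fold (log2 -1.18, SE 0.11, adjusted p = 1.42e-06) while its intronic Snord11 differed by -0.20 (adjusted p = 0.749) and its Snord70 by 0.37 (adjusted p = 0.833).

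**Figure D5:**
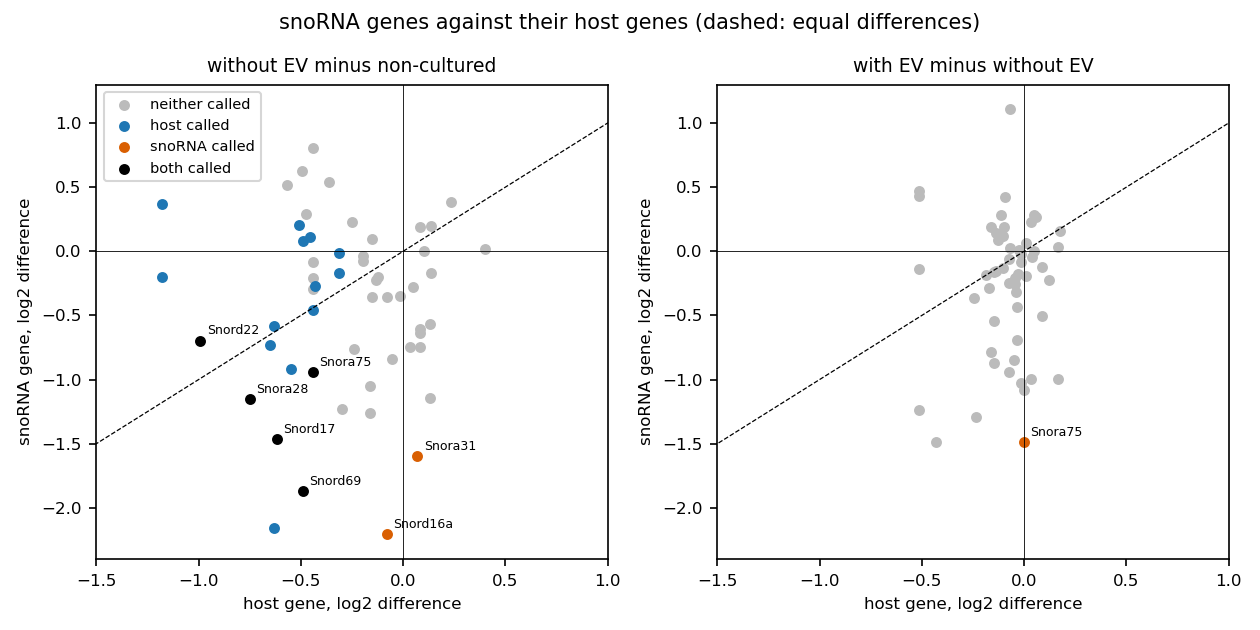
Log2 difference of each snoRNA gene (y) against that of its host gene (x) for 55 pairs, without EV minus non-cultured (left) and with EV minus without EV (right); colours show which of the pair had an adjusted p under 0.05, and the dashed line marks equal differences. Points do not follow the dashed line, and Snord16a and Snora31 lie low at host differences near 0.

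Values of members in the same host are given without a test of their difference. Within Gnl3, which encodes the nucleolar protein nucleostemin, Snord69 fell by 1.87 on the log2 scale without EV while Snord19 differed by 0.08 (SE 0.72, limma adjusted p = 0.975), and Gnl3 fell (log2 -0.49, SE 0.15, adjusted p = 0.0339). The 4 members in Snhg12 ranged from log2 -0.29 to 0.81 and none was called. The 3 members in 2410006H16Rik, Snord49a, Snord49b and Snord65, ranged from -0.74 to -0.60 and none was called. Within Wdr43 the host fell (log2 -0.63, adjusted p = 0.0018), while Snord92 differed by -2.16 (adjusted p = 0.102) and Snord53 by -0.58 (adjusted p = 0.0787). Snora73a and Snora73b within Snhg3, near-identical copies whose signals are uncertain, differed by -0.04 and -0.07. Snora33 had 2 probe sets that differed from each other, with log2 -0.84 on the brighter and -0.66 on the dimmer one without EV, and 0.09 and -0.60 with EV against without EV.

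The starts of the hosts of the 6 hosted members that fell in both comparisons are shown because many snoRNA hosts are known to begin with a run of pyrimidines, the 5′ terminal oligopyrimidine tract. Each sequence runs from 50 bases before to 20 after the RefSeq start (GRCm38.p6), 5′ to 3′ on the gene's strand. The longest run of C or T at any position in this window is in capitals. In Ncl the first of several runs of equal length is marked.
Eif5, host of Snora28, chr12:111538051-111538120, + strand: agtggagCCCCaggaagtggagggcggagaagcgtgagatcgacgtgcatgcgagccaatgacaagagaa
Tpt1, host of Snora31, chr14:75845206-75845275, + strand: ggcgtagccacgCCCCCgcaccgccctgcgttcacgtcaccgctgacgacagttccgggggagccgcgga
Ncl, host of Snora75, chr1:86359436-86359505, - strand: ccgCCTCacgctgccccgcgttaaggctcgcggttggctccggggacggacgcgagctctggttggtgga
Rpl4, host of Snord16a, chr9:64173337-64173406, + strand: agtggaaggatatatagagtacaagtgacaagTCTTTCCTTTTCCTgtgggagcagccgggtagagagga
Snhg1, host of Snord22, chr19:8723437-8723506, + strand: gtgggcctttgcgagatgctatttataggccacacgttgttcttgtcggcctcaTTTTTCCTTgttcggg
Gnl3, host of Snord69, chr14:31019112-31019181, - strand: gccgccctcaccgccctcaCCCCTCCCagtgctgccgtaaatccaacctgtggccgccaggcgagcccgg

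The run was 14 bases long in Rpl4, 9 in Snhg1 and 8 in Gnl3, and 4 or 5 in Ncl, Eif5 and Tpt1. Counted from the RefSeq start, it began at -18 in Rpl4, 5 in Snhg1 and -31 in Gnl3. In Tpt1 it began at -38, in Eif5 at -43 and in Ncl at -47. None began at the RefSeq start itself, so the marked runs are not shown to be terminal tracts, and the next count is of runs anywhere in the window. Of 48 hosts with a sequence, 17 held a run of at least 8 bases on this strand in this window, which is 35.4%, against 27.8% of 27025 genes. The median run was 6 bases in both. RefSeq starts may not be those used in LSK cells. No sequence of a snoRNA itself was used here.

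Genes for proteins of the snoRNA particles were looked at next, 5 of 7 measured core genes falling without EV, where 6.88% of all genes were called lower. Of the C/D core proteins, Nop58 and Snu13, which binds the kink of the C/D motif, fell without EV (log2 -1.18 and -0.99, limma adjusted p = 1.42e-06 and 1.23e-05), and Nop56 differed by -0.36 (adjusted p = 0.0544). Fibrillarin (Fbl) was not analysed here. Of the 4 H/ACA core proteins, Nhp2 (log2 -0.72, adjusted p = 0.0287), Gar1 (-0.56, adjusted p = 0.0456) and Nop10 (-0.42, adjusted p = 0.0486) fell without EV. The pseudouridine synthase gene Dkc1, which encodes dyskerin, differed by -0.56 (adjusted p = 0.119) without EV and fell with EV (log2 -1.03, SE 0.22, adjusted p = 0.0045), where replicate 1 read 6.07 and the other 4 between 6.73 and 7.58. None of the 7 core genes was called with EV against without EV by limma, and 0 had an unadjusted p under 0.05.

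Of 14 measured genes of snoRNA particle assembly and transport 4 fell without EV and none rose, with a median of log2 -0.44, where 6.88% of all genes were called lower. They were the AAA+ ATPase genes Ruvbl1 (log2 -0.64, limma adjusted p = 0.000872) and Ruvbl2 (-0.61), the nucleolar chaperone gene Nolc1 (-0.88) and Tcof1 (-0.54). Of 19 genes that trim or degrade small RNAs 4 fell without EV and none rose, namely Mphosph6 (log2 -1.23) and Exosc2 (-0.49) of the nuclear exosome, its nuclease Dis3 (-0.97), and the lariat debranching enzyme gene Dbr1 (-0.72, adjusted p = 0.00401), which opens spliced introns. With EV 5 of the 19 fell, where 7.85% of all genes were called lower, and Dbr1 fell by 1.01 on the log2 scale (adjusted p = 0.00024).

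Of 20 proteins that join U3 in the small subunit processome 5 fell without EV and 8 with EV, and none rose, where 6.88% and 7.85% of all genes were called lower. Utp18 (log2 -1.22, limma adjusted p = 0.00109), Rrp9, which binds U3 directly (-0.60, adjusted p = 0.0295), Wdr43 (-0.63) and Heatr1 (-0.36) fell without EV. Among 12 pseudouridine synthases that work without a guide RNA none was called in any comparison, with 1, 4 and 2 at an unadjusted p under 0.05 in the comparisons of without EV and of with EV against non-cultured cells and of EV against no EV. Of 18 measured non-coding host genes 5 fell without EV, led by Snhg1 (log2 -0.99, SE 0.10, adjusted p = 4.6e-06) and Snhg5 (-0.94, adjusted p = 0.00222), and Snhg20 rose (1.53, SE 0.25, adjusted p = 0.000448). No gene of these lists was called between the cultured groups.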

How the data were processed

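Each of 15 samples was hybridised to 1 Affymetrix Mouse Gene 2.0 array from 500 pg of total RNA, per the labels' protocols. The deposited table holds 41345 probe sets on a log2 scale by its range (1.40 to 13.0). The base is not stated, the submitters' processing notes name no tool other than MAS5, and how background was corrected and arrays were normalized is not given in the sources used here. Values were used as deposited. Gene names came from the platform annotation (23521 probe sets with 1 symbol, 1814 with several, 16010 unnamed), and 23328 entrez identifiers matched RefSeq GRCm38.p6, with 0 symbols changed. The brightest probe set stood for each of 22180 genes.

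Means of the 3 groups were estimated from all 15 arrays together with limma 3.58.1 in R 4.3.3 (lmFit, eBayes), two-sided, with Benjamini-Hochberg adjustment per comparison and calls at an adjusted p under 0.05. All adjusted p-values are from it. The number of arrays limits the precision. Fits were tested on simulated data. No scan date, slide or animal is given, so batches could not be examined, and none of 105 array pairs was identical.

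Named members were those called (24 or fewer), or with fewer than 5 called in a direction the 5 with the smallest p, plus Snora75, Snord82, hosts, and members of the lists. The reference table gives no strand, so hosts on either strand were taken. Members and lists were chosen with earlier results of these data known. Alternatives were quantile normalization, median centring, a filter on dim genes, other probe set summaries, all probe sets, other variance models, array weights, 2 groups only, a replicate block and leaving out each array.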

Additional observations from a re-analysis of the deposited data

Results flagged for a closer look

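In 87 groups of 5 arrays (27 named members in 3 groups, and the medians of both classes), the Dixon test at the 5% level marked 7 values far from the rest of their group, where chance alone marks about 5% of groups. With EV, replicate 2 stood high for Snora74a at 5.36 (the other 4 between 3.74 and 3.96), for Snord13 at 5.48 (the others between 2.86 and 3.57) and for Snord90 at 3.73 (the others between 2.15 and 2.45). Replicate 4 with EV stood high for Snord69 at 5.30 (the others between 4.05 and 4.36). In non-cultured cells replicate 2 read 8.47 for Snord8 (the others between 7.99 and 8.07), and replicate 4 read 2.54 for Snord90 (the others between 2.33 and 2.39). Without EV the C/D class median of deviations was -0.024 in replicate 2 and between -0.13 and -0.11 in the other 4.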

How the results depend on the processing

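No class median changed sign and no count of calls other than those given here moved by over 1.5 times under any alternative. With EV against without EV, the count of snoRNA genes called was 1 as reported, 0 with all probe sets tested, 0 with only the 2 groups compared, and 0 to 1 in the 15 fits that left out 1 array. Of the values of single genes under alternatives, 1002 kept direction and call, 93 lost their call, 1 gained it and 1 changed sign: Snord90 with EV against non-cultured ranged from -0.073 (without replicate 2 with EV) to 0.32 without single arrays, and the cause was not tested. In those 15 fits the count was 7 to 11 without EV and 12 to 18 with EV against non-cultured cells, and 29 (with replicate 2 without EV left out) to 53 over all genes for EV against no EV, where 44 are reported. Snord13, Snord118, Snora28, Snora31, Snord16a, Snord22 and Snord69 were called in all 15 fits of both comparisons with non-cultured cells, Snora75 in 8 without EV and 15 with EV, and Snord17 in 9 without EV.

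An alternative chosen after seeing the data kept only members brighter than the median gene (17 H/ACA, 26 C/D). The medians against non-cultured cells were then -0.48 and -0.58 without EV and -0.65 and -0.99 with EV for H/ACA and C/D genes, and the C/D median for EV against no EV was -0.08 (reported -0.16). The cause was not tested. Leaving out the members in no host gene gave C/D medians of -0.25 and -0.66. Without single arrays the H/ACA medians ranged from -0.20 to -0.05 (the latter without replicate 4 without EV) for EV against no EV, from -0.39 to -0.26 without EV and from -0.57 to -0.35 with EV against non-cultured cells, and the C/D medians from -0.31 to -0.08, from -0.41 to -0.18 (the latter without non-cultured replicate 4) and from -0.79 to -0.48. With the replicate number as a block, 1, 9 and 19 snoRNA genes were called for EV against no EV, without EV and with EV against non-cultured cells. Deviations of same-numbered samples correlated weakly (from -0.13 to 0.19, and from 0.02 to 0.19 for EV against no EV). The labels state no pairing. With 5 arrays in each group these correlations cannot exclude a shared sort or animal. The bound that background sets on dim members is unknown.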
